A study of Mus musculus with 4 samples.

Results

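The nuclear genes for the subunits of the oxidative phosphorylation (OXPHOS) complexes are described here in leukocytes sorted from mouse lung. Members are the gene rows whose symbol starts with Nduf followed by a subunit letter and number, with Uqcr, with Atp5 or with Cox and a subunit number, together with the Sdh subunit genes, pseudogene symbols left out. They number 84 of 32285 gene rows: 37 for complex I, 4 for complex II, 8 for complex III, 18 for complex IV and 17 for complex V. Complexes follow the symbols, so Ndufa4, whose protein is now counted with complex IV, stands with complex I.

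Oxidative phosphorylation takes place in the inner mitochondrial membrane. Complex I takes electrons from NADH and complex II from succinate, complex III passes them from ubiquinol to cytochrome c, and complex IV passes them to oxygen, while the proton gradient built up by complexes I, III and IV drives ATP synthesis by complex V. Complexes I, III, IV and V mix subunits coded in the nucleus with subunits coded in mitochondrial DNA, and all subunits of complex II are nuclear. Alveolar macrophages are known for a metabolism that relies on mitochondria, and mature neutrophils for one that relies mainly on glycolysis.

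The mice were C57B6/J animals, labelled WT, and Plaur–/– animals, which lack the gene for the urokinase receptor uPAR by their label. The design lists 8 mice of each genotype, both sensitized with LPS and ovalbumin (OVA) on days 0 and 7 and exposed to an OVA aerosol on day 14, so there was no unchallenged group. Lung cells were digested and sorted for CD45.2, a leukocyte marker, and 1 gene expression library per genotype was made with a 10x Genomics 3′ kit. Neither the mice's age, the number of mice behind a library nor a pooling step is stated in the sources used here, and the promoter or exon changed in the Plaur allele is not given there either.

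With 1 library per genotype there was no test of genotype, and a difference between genotypes cannot be told apart from a difference between these libraries. Values are counts of unique molecular identifiers (UMIs) summed over the cells of a class, given as CPM, which scales each class sum to a total of 1000000 UMIs. A log2 ratio is the KO-labelled level over the WT-labelled level, and brackets hold exact 95% intervals that cover counting error only. The WT-labelled library held 42913843 gene UMIs over all its 9024 barcodes and the KO-labelled library 47442215 over 10102. After filtering, 8684 and 9584 cells were kept, with medians of 3209 and 2777.5 UMIs per cell. Barcodes present in both libraries numbered 16, of which 15 were among the cells kept. Ptprc, the gene for CD45, had a UMI in 96.3% and 95.8% of the cells kept. Plaur was counted at 527 CPM (WT-labelled) and 455 CPM (KO-labelled). Where the allele was changed is not stated, so 3′ counts of Plaur do not check the genotype labels, and the libraries are named by their labels throughout.

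The members took 1.49% of all UMIs in the WT-labelled library and 1.54% in the KO-labelled library. Cells were grouped by expression with the members left out of the clustering, and named from marker genes. There were 16 classes with at least 50 cells in each library. Alveolar macrophages had the highest summed OXPHOS level in both libraries, at 19627 CPM (WT-labelled) and 20373 CPM (KO-labelled). Neutrophils had the lowest, at 7068 CPM [6997 to 7140] and 7379 CPM [7317 to 7440]. B cells came next to lowest in both, at 12121 and 12884 CPM. Between these ends, classical monocytes had rank 12 of 16 in the WT-labelled and rank 9 in the KO-labelled library, group 2 innate lymphoid cells ranks 2 and 5, and every other class moved by fewer ranks. In the WT-labelled library the intervals of group 2 innate lymphoid cells (18448 CPM), cDC2 (18370 CPM) and cDC1 (18256 CPM) overlapped, so the order among these 3 classes was not resolved.

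**Figure D1:**
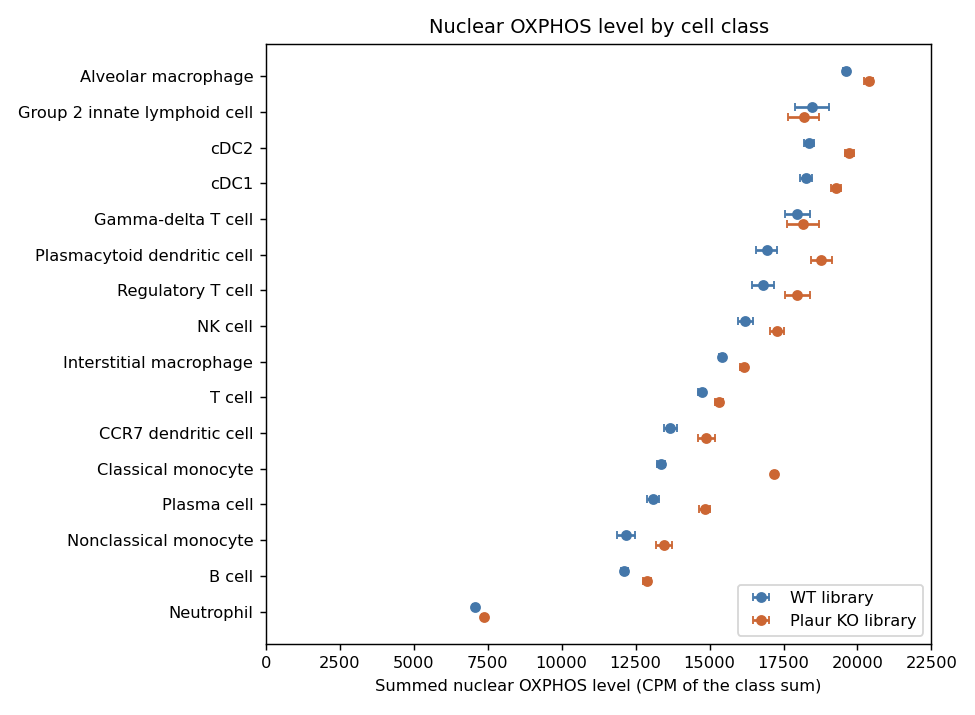
Summed level of the nuclear OXPHOS genes (x axis, CPM of the class sum) in 16 cell classes (y axis) in the WT-labelled (blue) and KO-labelled (orange) library. Points are class sums and bars are exact 95% Poisson intervals; classical monocytes have the widest gap, 13358 against 17189 CPM.

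Classical monocytes, the Ly6c2- and Ccr2-bearing cells that enter inflamed tissue from blood, had the widest gap between the libraries. The class held 224 WT-labelled and 798 KO-labelled cells. Its summed OXPHOS level was 13358 CPM (WT-labelled) and 17189 CPM (KO-labelled), a log2 ratio of 0.36 [0.35 to 0.38]. Of the 84 members, 77 reached the minimum of 50 UMIs over both libraries that was set for a ratio, and 74 of these were above 0 on the log2 scale (96.1%, against 46.2% of all 9129 genes at that minimum). The members' median log2 ratio was 0.37, against -0.04 for all genes. The fold threshold used throughout is a level at least 25% higher, or at least 20% lower, in the KO-labelled library. It was passed by 43 members in the higher direction, where 17.5% of all genes passed, and by 0 in the lower direction, where 22.3% passed. At 1.5-fold the number higher was 3, a count with no share of all genes beside it. These genes were taken up because an earlier look at the same libraries had shown them higher in these cells, so the counts describe that pattern and give no independent support for it. That look had every measured member higher, whereas 3 were below 0 here.

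Spread over single cells, the members' share of a cell's UMIs had a median of 1.44% in WT-labelled and 1.72% in KO-labelled monocytes, and 76.3% of the KO-labelled cells lay above the WT-labelled median. The distributions overlapped. The class joined 2 clusters. Cluster 8, the larger with 165 and 620 cells, had a log2 ratio of summed levels of 0.39 [0.38 to 0.41]. Besides 7 classical monocyte markers, 5 of the 8 neutrophil markers were enriched in cluster 8: S100a8, S100a9, Retnlg, Csf3r and Hdc. Each of these counts met the share of a marker set that a name required. Whether neutrophil RNA or neutrophils in cluster 8 had a part in its ratio was not tested. Cluster 6, with 59 and 178 cells, went from 17542 to 21036 CPM, a log2 ratio of 0.26 [0.22 to 0.31]. Both clusters were therefore higher in the KO-labelled library, by different amounts.

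**Figure D2:**
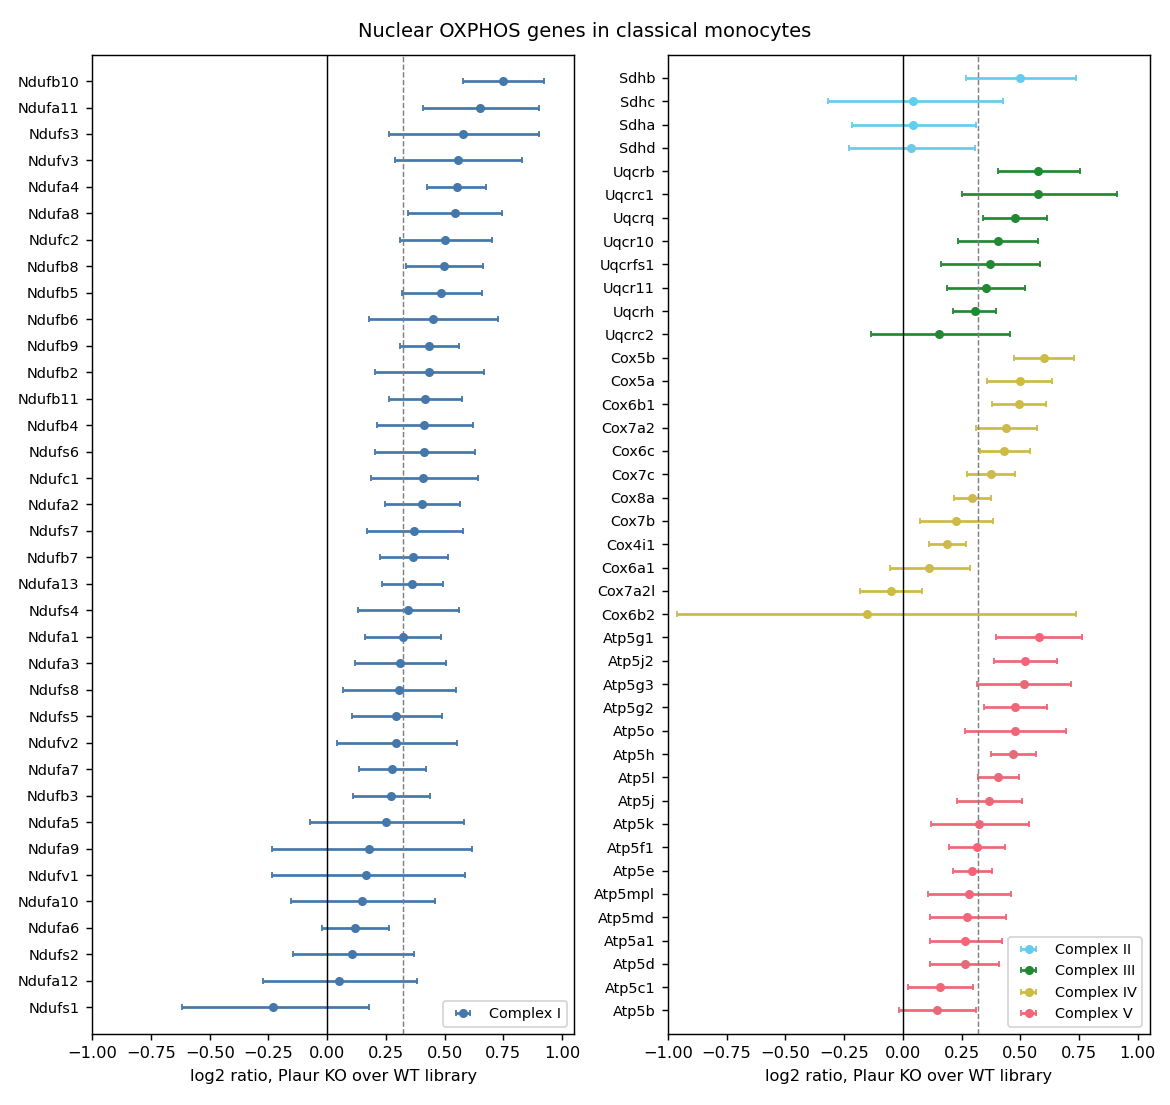
Log2 ratio of the KO-labelled over the WT-labelled library (x axis) for the 77 members with at least 50 UMIs in classical monocytes (y axis), by complex. Bars are exact 95% intervals for counting error, the dashed line marks 25% higher, and 61 intervals lie wholly above 0 and 0 below.

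Complex I, the NADH dehydrogenase, had a summed log2 ratio of 0.39 [0.36 to 0.42] in classical monocytes, with 21 of 36 measured members past the fold threshold, all higher. Ndufb10, an accessory subunit of the membrane arm, stood at 135 CPM (WT-labelled) and 228 CPM (KO-labelled), a log2 ratio of 0.75 [0.58 to 0.92] that no other member exceeded. Ndufa11, another membrane-arm subunit, went from 68.4 to 107 CPM (0.65 [0.41 to 0.90]). Ndufa4 went from 261 to 382 CPM (0.55 [0.43 to 0.68]). At the other end, Ndufs1, the large iron-sulfur subunit of the NADH-oxidizing arm, was at 29.4 and 25.1 CPM, a log2 ratio of -0.23 [-0.62 to 0.18]. Ndufa6 was at 206 and 224 CPM (0.12 [-0.02 to 0.26]). The intervals of Ndufs1 and Ndufa6 hold 0, and the other 3 lie well clear of it.

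Complex II, succinate dehydrogenase, was split. Sdhb, the iron-sulfur subunit, was at 77.1 and 109 CPM, a log2 ratio of 0.50 [0.27 to 0.74]. The flavoprotein gene Sdha was at 63.2 and 65.1 CPM (0.04 [-0.22 to 0.31]). The membrane anchors lay beside it, Sdhc at 32.5 and 33.5 CPM (0.04 [-0.32 to 0.42]) and Sdhd at 61.5 and 63.0 CPM (0.03 [-0.23 to 0.31]). Thus 1 of 4 members passed the fold threshold, and the intervals of the other 3 hold both 0 and, for Sdhc, values above the threshold.

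Complex III, the cytochrome bc1 complex, had a summed log2 ratio of 0.39 [0.33 to 0.44], and 6 of its 8 members passed the fold threshold. Uqcrb went from 134 to 200 CPM (0.58 [0.40 to 0.75]). Uqcrq went from 223 to 311 CPM (0.48 [0.34 to 0.61]), and the core protein gene Uqcrc1 from 38.5 to 57.4 CPM (0.58 [0.25 to 0.91]). The members under the fold were Uqcrh, the hinge protein that binds cytochrome c1, at 493 and 610 CPM (0.31 [0.21 to 0.40]), and the second core protein gene Uqcrc2 at 50.2 and 56.0 CPM (0.16 [-0.13 to 0.46]). All 8 were above 0 on the log2 scale.

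Complex IV, cytochrome c oxidase, had 12 of 18 members at the minimum, because most tissue-restricted isoforms had few or no UMIs. Its summed log2 ratio was 0.33 [0.30 to 0.37], and 6 of the 12 passed the fold threshold. Cox5b was at 254 and 385 CPM (0.60 [0.47 to 0.73]), Cox5a at 213 and 301 CPM (0.50 [0.36 to 0.64]), and Cox6b1 at 316 and 445 CPM (0.49 [0.38 to 0.61]). The regulatory subunit gene Cox4i1 was at 662 and 754 CPM, a log2 ratio of 0.19 [0.11 to 0.27]. Cox7a2l was at 247 and 238 CPM (-0.05 [-0.18 to 0.08]). Its interval ends below the threshold, so it did not share the shift of Cox5a, Cox5b and Cox6b1 at this depth.

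Complex V, the ATP synthase, had a summed log2 ratio of 0.36 [0.33 to 0.40], with 9 of 17 members past the fold threshold. Atp5g1, Atp5g2 and Atp5g3 code for the same mature subunit c, which forms the rotating ring. Atp5g1 went from 124 to 185 CPM (0.58 [0.40 to 0.76]), Atp5g2 from 227 to 317 CPM (0.48 [0.34 to 0.61]) and Atp5g3 from 104 to 149 CPM (0.51 [0.32 to 0.72]). The 3 log2 ratios overlap in their intervals. Atp5j2, a subunit of the membrane part, went from 226 to 324 CPM (0.52 [0.39 to 0.66]), and Atp5h, the stalk subunit d, from 442 to 612 CPM (0.47 [0.37 to 0.57]). The lowest by their upper bounds were Atp5b, the beta subunit, at 159 and 176 CPM (0.15 [-0.02 to 0.31]), and Atp5c1, the gamma subunit, at 219 and 245 CPM (0.16 [0.02 to 0.30]). The other subunits of the catalytic head were above 0 as well: Atp5a1, the alpha subunit, at 177 and 213 CPM (0.27 [0.11 to 0.42]), and Atp5d, the delta subunit, at 194 and 233 CPM (0.26 [0.12 to 0.41]). Atp5e, the epsilon subunit and the most counted gene of complex V, was at 602 and 739 CPM (0.30 [0.21 to 0.38]).

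Promoters are shown for 4 members that share sequence motifs and lie at different ends of the monocyte ratios. RefSeq promoter sequences (build GRCm38.p6) were matched for 68 of the 84 members, and each 300-base window was searched on both strands for the letters of 3 motifs known from OXPHOS promoters. The NRF1 motif (GCGC, then any base and T, then GCGC) was found in 17 of the 68 member windows and in 5.19% of the windows of all 27025 genes. The ETS motif CCGGAAG, bound by GABP among others, was also found in 17 member windows, and in 9.93% of all windows. The YY1 motif AAGATGGC was found in 10 member windows (14.7%) and in 3.19% of all windows. No base of a member window lay in matches to more than 1 of these motifs. Below are the 150 bases before the start site of each gene, 5′ to 3′ on the gene's strand, with motif matches in capitals. They lie at chr11:115419920-115420069 on the minus strand for Atp5h, chr17:56717612-56717761 on the plus strand for Ndufa11, chr13:74350241-74350390 on the minus strand for Sdha, and chr9:50603850-50603999 on the minus strand for Sdhd.
Atp5h: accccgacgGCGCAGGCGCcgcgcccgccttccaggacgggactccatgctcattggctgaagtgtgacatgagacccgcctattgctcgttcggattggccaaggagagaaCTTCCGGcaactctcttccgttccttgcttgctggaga
Ndufa11: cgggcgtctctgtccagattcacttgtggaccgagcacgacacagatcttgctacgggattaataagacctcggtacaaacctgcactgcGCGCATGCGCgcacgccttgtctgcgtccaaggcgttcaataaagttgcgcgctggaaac
Sdha: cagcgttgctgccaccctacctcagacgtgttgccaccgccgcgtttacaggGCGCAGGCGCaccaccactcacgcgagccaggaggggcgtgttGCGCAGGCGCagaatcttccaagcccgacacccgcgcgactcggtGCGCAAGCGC
Sdhd: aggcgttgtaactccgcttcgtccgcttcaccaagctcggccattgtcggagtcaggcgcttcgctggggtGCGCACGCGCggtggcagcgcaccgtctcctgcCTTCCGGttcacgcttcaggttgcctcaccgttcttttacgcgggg

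The Atp5h window holds an NRF1 match 141 bases and an ETS match 38 bases before the start site, and Ndufa11 an NRF1 match 60 bases before it. Sdhd has both motifs as well, NRF1 at 79 and ETS at 46 bases, and Sdha has 3 NRF1 matches, at 98, 55 and 10 bases. In classical monocytes, the log2 ratios of these genes were 0.47 for Atp5h and 0.65 for Ndufa11, against 0.04 for Sdha and 0.03 for Sdhd. Over the measured members, the median monocyte ratio was 0.41 with and 0.37 without the NRF1 letters, 0.35 with and 0.37 without the ETS letters, and 0.37 both with and without the YY1 letters. A match is a run of letters and not a measured binding site.

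Outside classical monocytes the members' shift was smaller, and most of them were still above 0. Among the other 8 classes with at least 150 cells in each library, the members' median log2 ratios ran from 0.02 in neutrophils to 0.10 in cDC2, and the summed ratios from 0.05 in alveolar macrophages to 0.10 in cDC2. Members past the threshold, higher and lower, numbered 1 and 4 of 74 in neutrophils, where 11.5% and 21.1% of all genes passed. They numbered 1 and 2 of 76 in B cells (10.7% and 8.45% of all genes) and 0 and 1 of 76 in T cells (8.96% and 11.4%). In alveolar macrophages they numbered 1 and 0 of 78 (9.36% and 10.5%), and in interstitial macrophages 1 and 2 of 77 (12.4% and 16.0%). In NK cells they numbered 3 and 1 of 76 (14.4% and 12.6%), in cDC2 5 and 0 of 77 (15.5% and 14.0%), and in cDC1 3 and 1 of 76 (12.6% and 14.2%). In these 8 classes the members' shares past the fold were below those of all genes in both directions. Thinly counted genes, whose ratios scatter more by counting error, were rarer among the members. From 50 to under 200 UMIs lay 3571 of 8777 genes but 0 of 76 members in T cells. In NK cells it was 3721 of 5848 genes and 16 of 76 members. The lower shares are therefore no sign of unusually stable genes, and genes of like counts were not compared. In each of the 8 classes a larger share of the members than of all genes was above 0, from 54.1% against 43.4% in neutrophils to 81.8% against 51.2% in cDC2. B cells had 77.6% against 55.9%, and interstitial macrophages 71.4% against 46.7%. The members' median exceeded that of all genes by 0.04 in T cells up to 0.09 in cDC2. Intervals wholly above and wholly below 0 numbered 19 and 0 in cDC2, 17 and 4 in alveolar macrophages, 17 and 6 in interstitial macrophages, and 15 and 1 in B cells. They numbered 11 and 3 in neutrophils, 11 and 1 in T cells and in cDC1, and 9 and 2 in NK cells. With cells of 5000 to 20000 UMIs alone, 24 of 72 measured members passed the threshold higher and 2 lower in B cells (110 and 66 cells). In NK cells (29 and 21 cells) 20 of 45 passed higher and 4 lower. The members' medians there were 0.21 and 0.27, against 0.05 and -0.04 for all genes of these subsets. The share of all genes past the threshold was not recorded for these subsets, so these counts have no share beside them. With the TMM factors of edgeR or the size factors of DESeq2, all log2 ratios moved up by 0.12 in classical monocytes and by 0.10 in neutrophils, and the counts became 6 higher and 1 lower in neutrophils and 0 and 2 in B cells. With DESeq2 size factors those of interstitial macrophages became 1 and 1. The counts after these scalings have no share of all genes beside them, because the shares above belong to the CPM scaling.

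**Figure D3:**
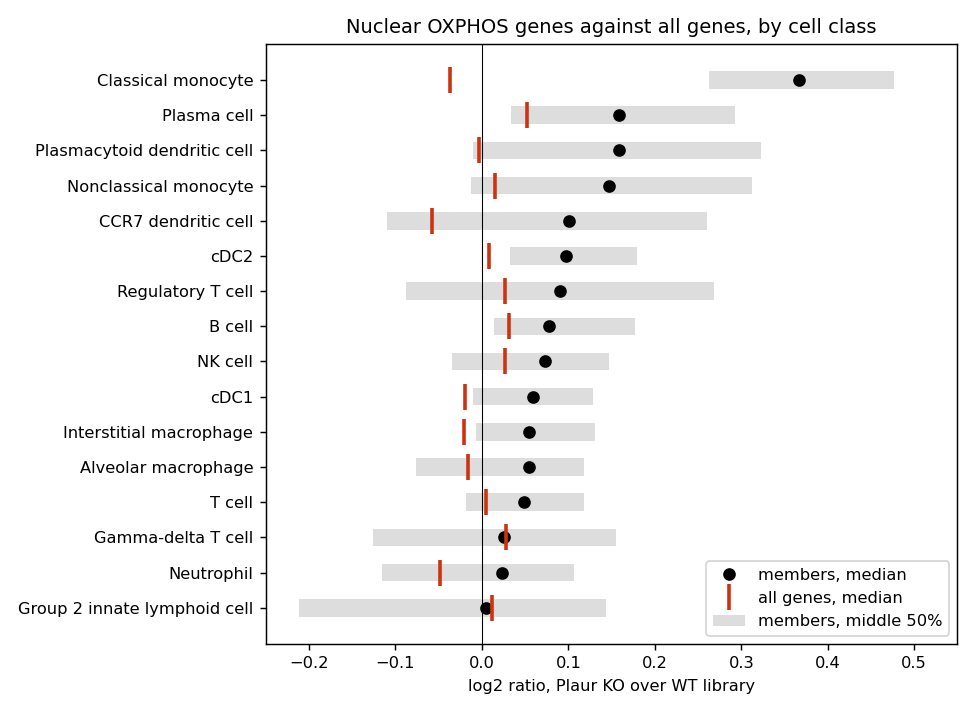
Log2 ratio of the KO-labelled over the WT-labelled library (x axis) in 16 cell classes (y axis): median of the members (black), their middle 50% (grey) and the median of all genes with at least 50 UMIs (red). The grey bar of classical monocytes, with a member median of 0.37 against -0.04 for all genes, lies to the right of 0 and of the red mark.

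The other 7 classes had fewer than 150 cells in at least 1 library. Nonclassical monocytes, the patrolling cells related to classical monocytes, went from 12173 to 13462 CPM, a log2 ratio of 0.15, with 110 and 199 cells. Plasma cells went from 13086 to 14841 CPM (0.18) and plasmacytoid dendritic cells from 16933 to 18775 CPM (0.15). CCR7 dendritic cells were at 13673 and 14894 CPM (0.12) and regulatory T cells at 16800 and 17958 CPM (0.10). Gamma-delta T cells were at 17967 and 18164 CPM (0.02), and group 2 innate lymphoid cells at 18448 and 18178 CPM (-0.02). The last was the one class of 16 whose summed level was lower in the KO-labelled library, within counting error. The medians of the members exceeded those of all genes by 0.16 in plasmacytoid and CCR7 dendritic cells, by 0.13 in nonclassical monocytes and by 0.11 in plasma cells.

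Members past the threshold in these classes, higher and lower, numbered 16 and 1 of 70 in nonclassical monocytes (17.9% and 16.3% of all genes). They numbered 18 and 1 of 76 in plasma cells (23.6% and 15.3%) and 19 and 2 of 74 in plasmacytoid dendritic cells (17.1% and 18.5%). In CCR7 dendritic cells 14 and 5 of 72 passed (13.5% and 25.2%), and in regulatory T cells 11 and 5 of 71 (18.2% and 16.5%). In gamma-delta T cells 5 and 9 of 64 passed (20.4% and 14.6%), and in group 2 innate lymphoid cells 8 and 6 of 59 (21.5% and 19.0%). The nonclassical monocyte median of 0.15 depended on the cells used. In cells of 5000 to 20000 UMIs (30 and 40 cells) it was 0.34, against -0.007 for all genes. There 26 of 49 members were higher and 1 lower, and the share of all genes past the threshold was not recorded. When each cell was thinned to 1000 UMIs, the members' median was -0.011.

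Single members stood out in several classes. Uqcrh had the highest ratio by its lower bound in neutrophils, from 192 to 241 CPM (0.33 [0.22 to 0.44]), and in alveolar macrophages, from 497 to 575 CPM (0.21 [0.13 to 0.29]). It was above 0 in 14 of 16 classes. Whether near-identical gene copies elsewhere in the genome affected the counted level of Uqcrh was not tested. Cox7a2l was higher in neutrophils, at 94.8 and 117 CPM (0.30 [0.14 to 0.46]), but lower in interstitial macrophages, at 270 and 214 CPM (-0.34 [-0.45 to -0.22]), and in cDC1, at 257 and 216 CPM (-0.25 [-0.43 to -0.07]). Its direction thus depended on the class. Ndufa12, an accessory complex I subunit, was lower in T cells, at 68.6 and 48.3 CPM (-0.51 [-0.80 to -0.22]), and in alveolar macrophages, at 78.1 and 64.2 CPM (-0.28 [-0.51 to -0.06]). It was below 0 in 11 of the 14 classes where it was measured. Ndufb11, a membrane-arm subunit of complex I, was higher in cDC2, at 230 and 307 CPM (0.41 [0.27 to 0.57]), and in cDC1, at 437 and 527 CPM (0.27 [0.14 to 0.40]).

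Other members at the ends of a class were as follows. In interstitial macrophages, Ndufa4 was at 133 and 178 CPM (0.42 [0.28 to 0.56]) and Uqcr11 at 154 and 190 CPM (0.30 [0.17 to 0.44]), while Sdhd was at 76.3 and 58.7 CPM (-0.38 [-0.60 to -0.16]). In B cells, Cox5a was at 178 and 214 CPM (0.27 [0.11 to 0.43]), and Ndufv3 at 82.0 and 62.2 CPM (-0.40 [-0.67 to -0.13]). The dendritic cells shared Atp5j, coupling factor 6 of the ATP synthase, which was at 307 and 374 CPM in cDC2 (0.29 [0.15 to 0.42]) and at 258 and 356 CPM in cDC1 (0.47 [0.30 to 0.63]). In NK cells, Ndufb10 was at 145 and 196 CPM (0.44 [0.13 to 0.74]), Atp5h at 664 and 796 CPM (0.26 [0.12 to 0.40]), Atp5g1 at 212 and 173 CPM (-0.29 [-0.57 to -0.01]), and Ndufa9 at 50.6 and 29.4 CPM (-0.79 [-1.44 to -0.14]). The low counts of Ndufa9, 50 and 37 UMIs, give it a wide interval. In T cells, Ndufs5 was at 105 and 128 CPM (0.29 [0.09 to 0.49]) and Atp5g3 at 196 and 229 CPM (0.22 [0.08 to 0.37]). In neutrophils, Cox7b was at 62.4 and 51.8 CPM (-0.27 [-0.48 to -0.05]) and Atp5g2 at 39.1 and 31.2 CPM (-0.33 [-0.60 to -0.05]).

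The neutrophil class joined 5 clusters that the libraries filled unequally. Cluster 13, with 292 and 905 cells, had a member median of 0.17 (16 higher and 5 lower of 58), against -0.04 for all genes. Cluster 12, with 813 and 920 cells, had -0.07 (2 and 12 of 62), against 0.008. Cluster 4 (518 and 539 cells) had 0.05 against -0.04, and cluster 5 (629 and 797 cells) 0.07 against 0.01. Cluster 30, with 19 and 154 cells, had 0.40 over 18 measured members, against 0.02. The share of all genes past the threshold was not recorded by cluster. The class sums thus combine clusters whose member medians did not all have the same sign.

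The low neutrophil level was not spread evenly over the subunits. Of the 76 members with a median of at least 10 CPM in the other classes, 62 were lowest in neutrophils in both libraries. Alveolar macrophages were highest in both libraries for 18 of them. For the subunit c gene Atp5g1 neutrophils had 16.8 and 16.9 CPM, 6.91% and 6.05% of the median of the other classes, in the WT-labelled and KO-labelled library. Atp5g2 stood at 10.4% and 8.06% of that median and Atp5g3 at 13.2% and 9.44%, so all 3 genes for subunit c were at the low end. Among complex I genes, Ndufa11 was at 4.45% and 5.36% and Ndufa5 at 4.92% and 2.32%. In neutrophils Ndufa5 had fewer UMIs than the minimum set for a ratio. Its percentages therefore rest on few counts, and the difference between them is not read as a change. By contrast Cox8a, a small subunit of complex IV, was at 632 and 685 CPM in neutrophils, 99.0% and 108% of the median of the other classes. Atp5l, subunit g of the ATP synthase, was at 480 and 551 CPM, where the other classes had medians of 505 and 539 CPM, and Ndufb9 was at 92.6% and 91.0% of their median. Genes of the same complex therefore differed widely in how far neutrophils fell below other cells. Class sums alone do not tell less RNA of a gene per cell from fewer cells with it. The share of neutrophils with a UMI of each of these genes was not compared. The neutrophil median depth was low, at 1745 and 1729 UMIs.

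The share of each complex among OXPHOS UMIs differed between classes. Complex I ranged from 24.9% in CCR7 dendritic cells to 37.9% in plasma cells in the WT-labelled library, and from 24.5% to 37.0% in the same classes in the KO-labelled library. Complex IV took 31.3% and 31.6% of the OXPHOS UMIs of neutrophils, against 25.4% and 25.4% in B cells. Complex I took 37.9% and 37.0% in plasma cells, which secrete antibody, and 28.5% and 27.5% in neutrophils. In classical monocytes complex I took 30.6% and 31.2% and complex IV 27.7% and 27.1%. In these monocytes both shares differed by less than 1 percentage point between the libraries. The widest gaps between libraries were in group 2 innate lymphoid cells, where complex I took 29.2% and 32.2% and complex IV 25.9% and 23.1%.

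Isoforms known from other tissues were unevenly spread over the classes. Cox6a2, the isoform of heart and skeletal muscle, was counted in plasmacytoid dendritic cells with 204 and 122 UMIs, or 386 [335 to 442] and 225 [187 to 268] CPM. It had a UMI in 45.2% and 34.4% of these cells (median depths 6377 and 5785 UMIs). In cluster 8 of the classical monocytes, a class with median depths of 8187 and 9115.5 UMIs, it had a UMI in 1.21% and 1.13% of cells. Cox6a2 was also found in interstitial macrophages, where cluster 16 held 164 and 102 UMIs (33.5 and 43.7 CPM) and cluster 17 only 4 and 3. Cox6b2, known from testis, was at 51.0 and 51.4 CPM in alveolar macrophages and at 20.4 and 26.0 CPM in cDC2. It was lower in plasmacytoid dendritic cells, with 6 UMIs in each library, and in classical monocytes, with 16 and 64 UMIs; in their cluster 8 it had a UMI in 9.70% and 6.77% of cells. A small cluster of cycling cells outside the 16 classes, with 37 and 48 cells, had Cox6b2 at 54.5 and 41.1 CPM. Cox7a1, a heart and muscle isoform, had 41 and 26 UMIs in alveolar macrophages (5.49 and 7.39 CPM), with 10 and 7 UMIs in interstitial macrophages and 8 or fewer per library in every other class. An unnamed cluster of 4 and 19 cells, in which all 7 epithelial markers were enriched, had 0 and 19 UMIs of Cox6a2. Cox4i2, a lung-enriched isoform, had 5 and 9 UMIs over the 16 classes, Ndufa4l2 had 0 and 3, and no UMI was counted for Cox7b2, Cox8b or Cox8c. A count of 0 allows up to 0.402 CPM in WT-labelled alveolar macrophages and up to 12.5 CPM in KO-labelled gamma-delta T cells.

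**Figure D4:**
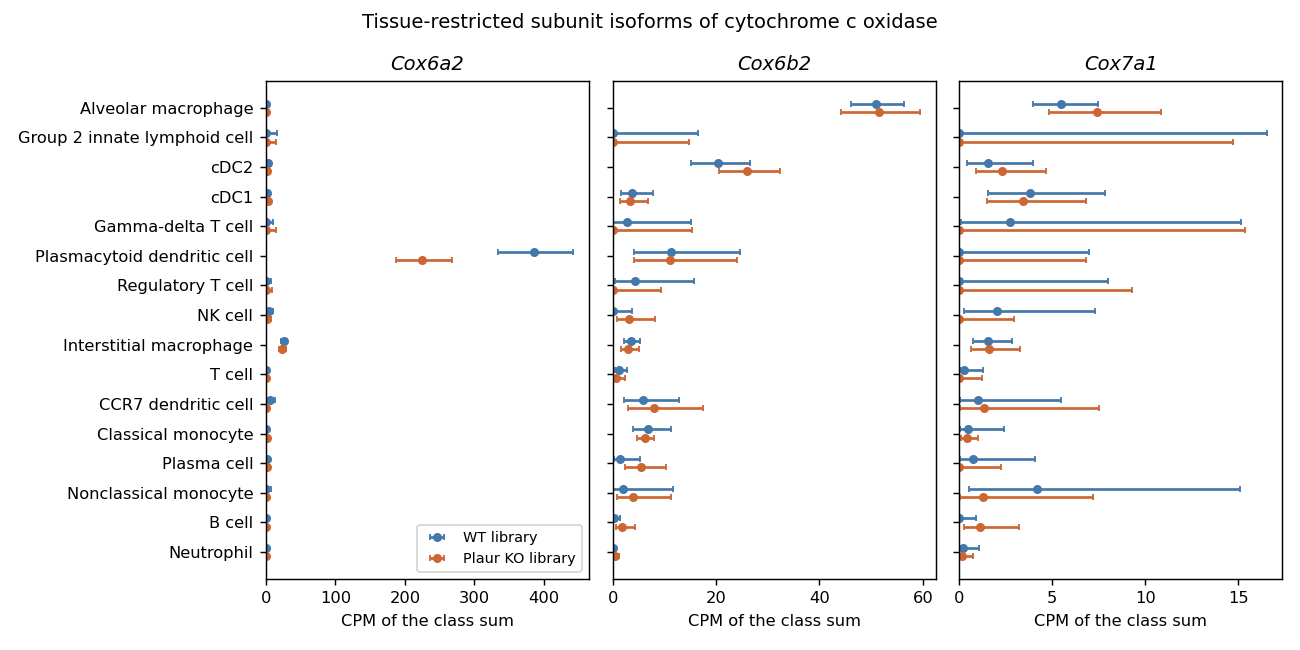
Levels of Cox6a2, Cox6b2 and Cox7a1 (x axes, CPM of the class sum, a scale for each gene) in 16 cell classes (y axis) in the WT-labelled (blue) and KO-labelled (orange) library, with exact 95% Poisson intervals. Cox6a2 stands out in plasmacytoid dendritic cells at 386 and 225 CPM, and Cox6b2 in alveolar macrophages at 51.0 and 51.4 CPM.

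Other mitochondrial gene groups in classical monocytes did not all follow the members. The mitochondrial ribosome, which makes the subunits coded in mitochondrial DNA, had a median log2 ratio of 0.49, with 52 of 78 genes past the threshold in the higher direction and 1 in the lower. Assembly factors of the complexes had a median of 0.31 (21 higher and 3 lower of 43), and electron and energy carriers such as cytochrome c and the ADP/ATP carriers 0.23 (5 and 0 of 10). Enzymes of the tricarboxylic acid cycle had a median of 0.16 (1 and 0 of 13). The 13 subunit genes coded in mitochondrial DNA had a median of -0.18, with 0 higher and 1 lower, and their summed level was 12259 CPM (WT-labelled) and 11844 CPM (KO-labelled). The median of the nuclear members, 0.37, was thus above 0 and that of the mitochondrial subunit genes below it. All genes had a median of -0.04, and 1 of the 13 mitochondrial genes passed the threshold. Whether these 13 genes moved apart from all genes was not tested. Regulators of mitochondrial genes had a median of -0.20 (0 and 2 of 9). Groups outside mitochondria also had medians above that of all genes: proteasome subunits at 0.32 (19 and 0 of 37), cytosolic ribosomal proteins at 0.16 (8 and 3 of 91) and glycolytic enzymes at 0.10 (4 and 3 of 16). Against the 17.5% of all genes that passed higher and the 22.3% that passed lower, the counts of ribosomal proteins, tricarboxylic acid cycle enzymes and regulators were below the share in both directions or near it, and those of glycolytic enzymes were close to both shares. These counts carry no test.

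Several measures differed between the libraries in classical monocytes along with the members. Median depth was 8187 UMIs in WT-labelled and 9115.5 UMIs in KO-labelled cells. Among cells of 2000 to 5000 UMIs the summed log2 ratio was 0.24, among those of 5000 to 10000 also 0.24, from 10000 to 20000 it was 0.37, and at 20000 or more it was 0.62, there with 20 and 143 cells. The member level was higher in the KO-labelled library in all 4 ranges. Genes with a short span on the genome were higher as a whole: all genes under 5 kb had a median of 0.19 and those of 60 kb or more -0.23. Members had medians of 0.37 under 5 kb (23 members), 0.41 from 5 to 20 kb (44 members), where all genes had 0.08, and 0.15 from 20 to 60 kb (9 members), where all genes had -0.05. Within each span range the members stayed above the other genes, but the range of 60 kb or more held only 1 member, at 0.34. The nuclear RNAs Malat1 and Neat1 had log2 ratios of -0.21 and -0.56.

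**Figure D5:**
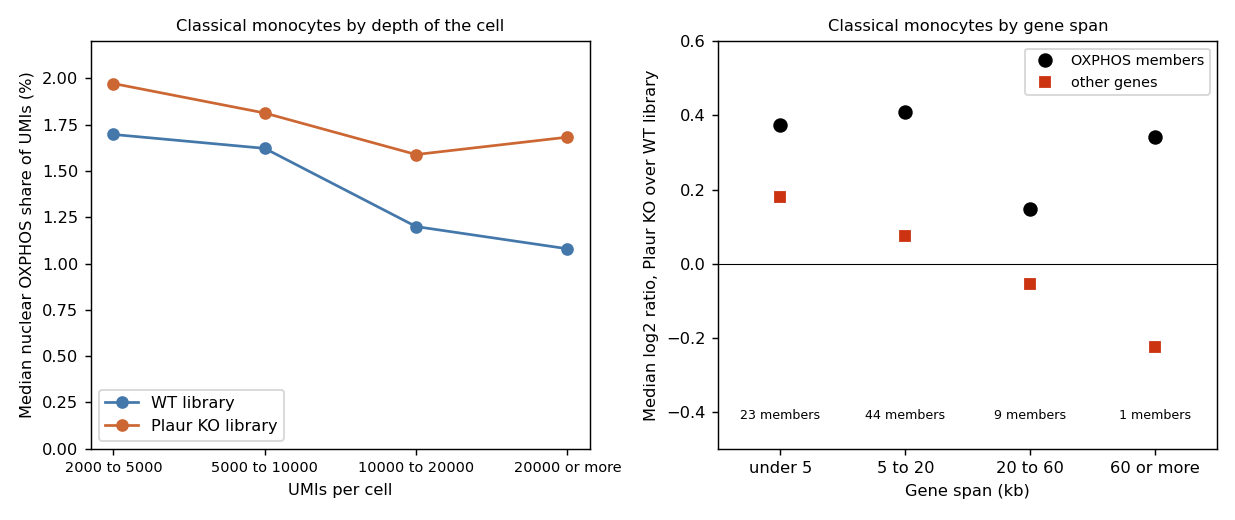
Left, median share of a classical monocyte's UMIs that came from the members (y axis, percent) by UMIs per cell (x axis) in the WT-labelled (blue) and KO-labelled (orange) library. Right, median log2 ratio (y axis) of the members (black) and of other genes (red) by gene span (x axis, kb). The KO-labelled share is higher at each depth. The members lie above the other genes at each span, with only 1 member at 60 kb or more.

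Marker RNA of other cell types also differed in these monocytes. Summed T cell markers were at 161 CPM (WT-labelled) and 73.0 CPM (KO-labelled), NK cell markers at 89.2 and 34.6 CPM, and mast cell or basophil markers at 34.6 and 2.72 CPM, with Fcer1a and Cd200r3 at 0 in the KO-labelled library. B cell markers were also lower in the KO-labelled library, with a log2 ratio of CPM of -1.55. Epithelial markers went the other way, from 18.2 to 42.3 CPM, with 6 of 7 higher. Neutrophil markers, several of which monocytes also express, were at 34708 and 45298 CPM, with 4 of 8 higher in the KO-labelled library. The monocytes' own markers were at 4518 and 5615 CPM, with 6 of 7 higher. When only cells without a UMI of the lymphocyte and mast cell markers were used (143 and 531 cells), the members' median was 0.30. All genes had a median of -0.009 there. Of the 77 measured members 69 were above 0, with 36 past the threshold higher and 2 lower. With cells of 5000 to 20000 UMIs (160 and 529 cells) the members' median was 0.31, against -0.005 for all genes, with 38 members higher and 1 lower. The shares of all genes above 0 or past the threshold were not recorded for these subsets. The part of neutrophil marker RNA, and that of the share of deep cells, in what remains was not tested.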

How the data were processed

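The deposited matrices hold raw UMI counts per gene and cell, made by the authors with Cell Ranger (versions 7.0.0 and 7.1.0 are named) on mm10, per the submitters' processing notes; whether intronic reads were counted is not stated. Antibody counts were not used. Barcodes needed 200 detected genes and no more than 10% of their UMIs from mitochondrial genes, and Scrublet calls (260 and 457 cells) were removed. Both libraries were clustered together in scanpy 1.11.5 (3000 variable genes without the members, 30 components, Leiden resolution 1), giving 32 clusters, and named from 24 marker sets; a cluster needed 60% of a set, a threshold chosen after seeing the data, and 61 and 84 cells stayed unnamed. Counts were summed per class and library. Ratios used genes with at least 50 UMIs over both libraries; the interval code was tested on simulated data. Genes named in classical monocytes are the 3 highest and 2 lowest of each complex by the interval bound nearest 0. All of complex II is named there. In other main classes they are the 2 highest and 2 lowest, of which a few are only counted and not named. The isoforms, the subunit c genes and the most counted member of each complex are named as well. Ndufa5, Atp5l and Ndufb9 and the 4 promoters were picked after their values were seen. Atp5a1 and Atp5d in classical monocytes also lie outside this rule. edgeR 4.0.16 and DESeq2 1.42.0 gave alternative scalings only. The members and gene lists were chosen with earlier results of these data known.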

Additional observations from a re-analysis of the deposited data

Results flagged for a closer look

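In 3 genes the log2 ratio of the KO-labelled over the WT-labelled library pointed in opposite directions in a pair of cell classes, with counting intervals on either side of 0. With 1 library per genotype the difference between the classes was not tested, and with 84 members and 16 classes compared some such pairs arise by counting error. Atp5k, a small membrane subunit of the ATP synthase, was at 0.32 in classical monocytes and at -0.71 in gamma-delta T cells. Atp5g2, for subunit c, was at 0.49 in nonclassical monocytes and at -0.76 in regulatory T cells. Ndufv3, an accessory subunit of complex I, was at 0.55 in regulatory T cells and at -0.40 in B cells.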

How the results depend on the processing

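The members' median log2 ratio in classical monocytes stayed above 0 under all 16 alternatives, from 0.28 with each cell weighted alike to 0.49 with TMM factors or DESeq2 size factors, and at least 0.28 above the median of all genes. The number of members past the fold threshold in the higher direction there was 43, and 30 to 60 under the alternatives that kept this threshold. The counts of the other classes were small and moved more: higher members went up to 24 in B cells, 20 in NK cells and 26 in nonclassical monocytes, all with cells of 5000 to 20000 UMIs. The share of all genes past the threshold was not recorded for those cells. In nonclassical monocytes the median changed sign when cells were thinned, and those of gamma-delta T cells and group 2 innate lymphoid cells, near 0, changed sign under some alternatives. The alternatives that restrict cells by depth or by marker RNA were chosen after seeing the data. The cause of the other changes was not tested. No paired analysis was possible because each genotype has 1 library, and for the same reason no replicate could be left out. Depth sets the width of the intervals, as for Ndufa9 in NK cells with 50 and 37 UMIs, and 7 members, all tissue-restricted isoforms, had fewer than 50 UMIs in classical monocytes and got no ratio. Given next are medians that moved by more than the half-width of the counting interval of the class's summed ratio. That width is a yardstick and not the counting error of a median. Sums that left their counting interval and counts that moved by over 1.5 times are given as well. Higher counts and lower-direction counts are numbers of members past the fold threshold. They have no share of all genes beside them under these alternatives.

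DESeq2 size factors gave medians of 0.046 in B cells, 0.17 in CCR7 dendritic cells, 0.49 in classical monocytes, 0.070 in interstitial macrophages, 0.13 in neutrophils and 0.089 in cDC1. DESeq2 size factors gave higher counts of 0 in B cells and 6 in neutrophils. DESeq2 size factors gave lower-direction counts of 2 in CCR7 dendritic cells and 1 in interstitial macrophages and neutrophils. TMM factors gave medians of 0.040 in B cells, 0.15 in CCR7 dendritic cells, 0.49 in classical monocytes, -0.032 in gamma-delta T cells, -0.11 in group 2 innate lymphoid cells, 0.13 in neutrophils and 0.096 in cDC1. TMM factors gave higher counts of 0 in B cells, 3 in gamma-delta T cells, 4 in group 2 innate lymphoid cells and 6 in neutrophils. TMM factors gave lower-direction counts of 3 in CCR7 dendritic cells, 16 in group 2 innate lymphoid cells and 1 in neutrophils. At least 500 genes per cell gave medians of 0.0044 in neutrophils. Clusters weighted alike gave medians of 0.34 in classical monocytes, 0.10 in interstitial macrophages and 0.069 in T cells. Clusters weighted alike gave higher counts of 2 in B cells and 1 in T cells. Clusters weighted alike gave lower-direction counts of 0 in B cells and 1 in interstitial macrophages and neutrophils. Doublet calls kept gave medians of 0.33 in classical monocytes, 0.081 in interstitial macrophages, 0.025 in NK cells, 0.20 in plasma cells, 0.11 in plasmacytoid dendritic cells and 0.068 in cDC2. Doublet calls kept gave higher counts of 0 in alveolar macrophages and B cells and 2 in interstitial macrophages and neutrophils. Doublet calls kept gave lower-direction counts of 1 in alveolar macrophages. Doublet calls kept gave WT-labelled sums in CPM of 19381 in alveolar macrophages, 13541 in classical monocytes, 12253 in plasma cells and 14328 in T cells. Doublet calls kept gave KO-labelled sums in CPM of 20098 in alveolar macrophages, 12699 in B cells, 16425 in interstitial macrophages, 16664 in NK cells, 14451 in plasma cells, 14722 in T cells and 19324 in cDC2. Cells weighted alike gave medians of 0.014 in alveolar macrophages, 0.28 in classical monocytes, 0.083 in nonclassical monocytes, 0.11 in plasmacytoid dendritic cells, 0.037 in regulatory T cells, 0.025 in cDC1 and 0.21 in cDC2. Cells weighted alike gave higher counts of 0 in B cells, 8 in gamma-delta T cells, 5 in NK cells, 3 in neutrophils, 11 in plasma cells, 1 in T cells and 14 in cDC2. Cells weighted alike gave lower-direction counts of 1 in alveolar macrophages and B cells, 0 in interstitial macrophages, 2 in NK cells, neutrophils and plasma cells, 4 in nonclassical monocytes and plasmacytoid dendritic cells and 9 in regulatory T cells. Cells weighted alike gave WT-labelled sums in CPM of 19484 in alveolar macrophages, 11477 in B cells, 13242 in CCR7 dendritic cells, 14286 in classical monocytes, 17501 in gamma-delta T cells, 14735 in interstitial macrophages, 15958 in NK cells, 12767 in nonclassical monocytes, 12713 in plasma cells, 17676 in plasmacytoid dendritic cells, 14395 in T cells, 17872 in cDC1 and 16853 in cDC2. Cells weighted alike gave KO-labelled sums in CPM of 19985 in alveolar macrophages, 12186 in B cells, 14200 in CCR7 dendritic cells, 15321 in interstitial macrophages, 17015 in NK cells, 13934 in plasma cells, 17322 in regulatory T cells, 15003 in T cells, 18680 in cDC1 and 19272 in cDC2. Cells thinned to 1000 UMIs gave medians of 0.15 in CCR7 dendritic cells, 0.30 in classical monocytes, 0.14 in gamma-delta T cells and cDC2, -0.011 in nonclassical monocytes, 0.014 in plasma cells, 0.073 in plasmacytoid dendritic cells and 0.070 in T cells. Cells thinned to 1000 UMIs gave higher counts of 4 in alveolar macrophages and T cells, 6 in B cells, CCR7 dendritic cells, interstitial macrophages and plasma cells, 2 in group 2 innate lymphoid cells and neutrophils, 11 in NK cells, 5 in nonclassical monocytes and plasmacytoid dendritic cells, 9 in cDC1 and 13 in cDC2. Cells thinned to 1000 UMIs gave lower-direction counts of 6 in alveolar macrophages, 0 in CCR7 dendritic cells, 1 in classical monocytes and regulatory T cells, 4 in gamma-delta T cells, interstitial macrophages and plasma cells, 2 in group 2 innate lymphoid cells, 5 in NK cells and cDC1 and 3 in nonclassical monocytes and cDC2. Cells thinned to 1000 UMIs gave WT-labelled sums in CPM of 19478 in alveolar macrophages, 11415 in B cells, 12952 in CCR7 dendritic cells, 14063 in classical monocytes, 14770 in interstitial macrophages, 7181 in neutrophils, 13111 in nonclassical monocytes, 12753 in plasma cells, 17521 in plasmacytoid dendritic cells, 16394 in regulatory T cells, 14440 in T cells, 17668 in cDC1 and 17743 in cDC2. Cells thinned to 1000 UMIs gave KO-labelled sums in CPM of 12258 in B cells, 14396 in CCR7 dendritic cells, 17306 in classical monocytes, 15388 in interstitial macrophages, 14155 in plasma cells, 15104 in T cells and 18508 in cDC1. A fold of 1.5 gave higher counts of 0 in alveolar macrophages, B cells, gamma-delta T cells, interstitial macrophages, NK cells, neutrophils, cDC1 and cDC2, 2 in CCR7 dendritic cells, group 2 innate lymphoid cells, plasma cells and plasmacytoid dendritic cells, 3 in classical monocytes and nonclassical monocytes and 1 in regulatory T cells. A fold of 1.5 gave lower-direction counts of 0 in B cells, CCR7 dendritic cells, interstitial macrophages, neutrophils, nonclassical monocytes, plasma cells, T cells and cDC1, 4 in gamma-delta T cells, 2 in group 2 innate lymphoid cells and 1 in plasmacytoid dendritic cells and regulatory T cells. A minimum of 1 UMI gave higher counts of 2 in alveolar macrophages, 4 in B cells, 8 in gamma-delta T cells, 16 in group 2 innate lymphoid cells, 3 in neutrophils and 1 in T cells. A minimum of 1 UMI gave lower-direction counts of 8 in CCR7 dendritic cells and neutrophils, 1 in classical monocytes, 2 in NK cells and plasma cells, 4 in nonclassical monocytes and plasmacytoid dendritic cells and 3 in T cells and cDC2. A minimum of 20 UMIs gave higher counts of 16 in group 2 innate lymphoid cells and 2 in neutrophils. A minimum of 20 UMIs gave lower-direction counts of 3 in nonclassical monocytes and 4 in plasmacytoid dendritic cells. A minimum of 200 UMIs gave medians of 0.14 in CCR7 dendritic cells and -0.12 in group 2 innate lymphoid cells. A minimum of 200 UMIs gave higher counts of 0 in alveolar macrophages and gamma-delta T cells, 1 in group 2 innate lymphoid cells, 6 in nonclassical monocytes, 11 in plasmacytoid dendritic cells and 3 in regulatory T cells and cDC2. A minimum of 200 UMIs gave lower-direction counts of 1 in CCR7 dendritic cells, gamma-delta T cells, group 2 innate lymphoid cells, neutrophils and plasmacytoid dendritic cells, 0 in NK cells, nonclassical monocytes, plasma cells and cDC1 and 2 in regulatory T cells. Cells of 5000 to 20000 UMIs gave medians of 0.21 in B cells, 0.31 in classical monocytes, 0.084 in interstitial macrophages, 0.27 in NK cells, 0.050 in neutrophils, 0.34 in nonclassical monocytes and 0.074 in cDC2. Cells of 5000 to 20000 UMIs gave higher counts of 0 in alveolar macrophages, 24 in B cells, 20 in NK cells, 7 in neutrophils, 26 in nonclassical monocytes and 6 in T cells. Cells of 5000 to 20000 UMIs gave lower-direction counts of 1 in classical monocytes, 4 in NK cells and T cells and 0 in cDC1. Cells without lymphocyte and mast cell markers gave medians of 0.30 in classical monocytes and plasma cells, 0.039 in interstitial macrophages, 0.23 in nonclassical monocytes, 0.020 in plasmacytoid dendritic cells, 0.035 in cDC1 and 0.13 in cDC2. Cells without lymphocyte and mast cell markers gave higher counts of 0 in alveolar macrophages, 2 in B cells and T cells, 9 in CCR7 dendritic cells, 11 in NK cells, 5 in neutrophils, 29 in plasma cells and 6 in plasmacytoid dendritic cells. Cells without lymphocyte and mast cell markers gave lower-direction counts of 2 in classical monocytes and cDC1, 3 in plasma cells and 5 in plasmacytoid dendritic cells. Leiden resolution 0.5 gave medians of 0.11 in plasmacytoid dendritic cells. Leiden resolution 0.5 gave higher counts of 5 in group 2 innate lymphoid cells, 3 in regulatory T cells and 2 in T cells. Leiden resolution 0.5 gave lower-direction counts of 3 in nonclassical monocytes, 8 in plasmacytoid dendritic cells, 1 in regulatory T cells and 2 in T cells. Leiden resolution 0.5 gave WT-labelled sums in CPM of 13182 in classical monocytes, 13819 in nonclassical monocytes, 16015 in plasmacytoid dendritic cells, 16240 in regulatory T cells and 14175 in T cells. Leiden resolution 0.5 gave KO-labelled sums in CPM of 16981 in classical monocytes, 15027 in nonclassical monocytes, 16879 in plasmacytoid dendritic cells, 17082 in regulatory T cells and 14732 in T cells. Totals without mitochondrial, ribosomal and haemoglobin genes gave medians of 0.39 in classical monocytes. Totals without mitochondrial, ribosomal and haemoglobin genes gave WT-labelled sums in CPM of 22812 in alveolar macrophages, 15691 in B cells, 16570 in CCR7 dendritic cells, 15349 in classical monocytes, 22573 in gamma-delta T cells, 23201 in group 2 innate lymphoid cells, 18420 in interstitial macrophages, 19480 in NK cells, 7318 in neutrophils, 13888 in nonclassical monocytes, 14638 in plasma cells, 20870 in plasmacytoid dendritic cells, 19933 in regulatory T cells, 19866 in T cells, 23296 in cDC1 and 22676 in cDC2. Totals without mitochondrial, ribosomal and haemoglobin genes gave KO-labelled sums in CPM of 23867 in alveolar macrophages, 16587 in B cells, 18049 in CCR7 dendritic cells, 20070 in classical monocytes, 22675 in gamma-delta T cells, 22670 in group 2 innate lymphoid cells, 19330 in interstitial macrophages, 20821 in NK cells, 7647 in neutrophils, 15526 in nonclassical monocytes, 16637 in plasma cells, 23145 in plasmacytoid dendritic cells, 21163 in regulatory T cells, 20904 in T cells, 24323 in cDC1 and 24436 in cDC2. Leaving out the 1% of cells with most UMIs gave medians of 0.10 in B cells, 0.35 in classical monocytes, 0.043 in neutrophils, 0.073 in nonclassical monocytes and 0.091 in plasma cells. Leaving out the 1% of cells with most UMIs gave higher counts of 3 in neutrophils. Leaving out the 1% of cells with most UMIs gave lower-direction counts of 1 in B cells and 2 in nonclassical monocytes.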
